A study of Homo sapiens with 6 samples.

Results

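A group of 10 genes of the Notch pathway, out of 58735 genes in the count table, was followed through a CNOT7 knockdown in SW480, a human colorectal cancer cell line. The group comprised the receptors NOTCH1, NOTCH2 and NOTCH3, the ligands JAG1, JAG2 and DLL1, the ligand-like protein DNER, and the target genes HES1, HEY1 and NRARP. The genes were chosen by name, with the knockdown against control differences of these same 6 libraries already known. Their differences, intervals and calls below are therefore a description and not independent evidence of a change, and no p-value is given for them. The comparison was between 3 control and 3 knockdown libraries. Every library came from SW480 cells that had not been irradiated. The study describes stable knockdown lines made with a lentiviral vector, in which the U6 promoter drives a short hairpin RNA (shRNA) against CNOT7 beside copGFP and puromycin resistance. It lists 2 such shRNAs, and which one each knockdown library carries is not stated. The control libraries are titled Nc and their columns in the count table shNc, and the sequence of a control hairpin is not given in the sources used here. Both groups are cultures of a cell line, with no stroma or neighbouring tissue. The study's text names HCT116, another colorectal cancer line, for its sequencing experiment, whereas the sample labels name SW480. Whether libraries of one group came from separate cultures is not stated, so every error below measures the spread between these libraries, which may be technical.

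Notch is a signalling pathway between neighbouring cells. A ligand of the Delta or Jagged family on one cell binds a Notch receptor on the next, a metalloprotease and then γ-secretase cut the receptor, and the freed intracellular part enters the nucleus and joins the DNA-binding protein RBPJ to switch on targets such as HES1, HEY1 and NRARP. In the intestinal epithelium the pathway keeps progenitors dividing and favours absorptive over secretory cells, with HES1 repressing ATOH1, the master regulator of the secretory lineage. CNOT7 is a catalytic subunit of CCR4-NOT, the complex that shortens the poly(A) tails of messenger RNAs.

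The libraries held 23788451 to 25982493 counts in the control group and 27523812 to 29104872 in the knockdown group. CNOT7 itself fell from 179 ± 11.3 to 43.1 ± 4.31 CPM (counts scaled to library size with TMM factors, mean ± SD, n = 3), a log2 fold change of -2.05. After a filter on low counts 17574 genes were tested with edgeR's quasi-likelihood test, and a gene was called where its Benjamini-Hochberg adjusted p-value was under 0.05. Of these, 25.2% were called, 13.3% higher and 11.9% lower with knockdown, and 38.8% had groups whose values did not overlap. The median log2 fold change over all tested genes was 0.0039. All 8 markers of colorectal epithelium passed the filter, at mean levels from 0.741 to 2616 CPM. VIL1 and CDH1 were called higher, at log2 fold changes of 0.72 and 0.51, and KRT8 and KRT19 were called lower, at -0.15 and -0.18. Of 10 markers of fibroblasts, leukocytes and endothelium, COL1A1 (8.79 CPM) and VWF (2.16 CPM) passed the filter, neither was called, and the other 8 had at most 17 counts in any library.

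All 10 Notch genes passed the filter. In the comparison of knockdown with control, 5 of the 10 were called, beside 25.2% of all tested genes. DNER, NOTCH3, DLL1 and HEY1 were higher with knockdown and HES1 was lower. The groups did not overlap for 6 of the 10, which were these 5 and JAG1, beside 38.8% of all tested genes. Because the genes were chosen with this contrast known, nothing is read from these counts beside the shares over all genes. By log2 fold change from the highest, DNER ranked 3, NOTCH3 290, DLL1 744 and HEY1 1240 of the 17574 tested genes. HES1 ranked 382 counted from the lowest. These ranks only describe values that were known when the genes were chosen. That of DNER rests on 3 counts in all controls together and on a filter passed only through the knockdown libraries. The abundant members, namely NOTCH1, NOTCH2, JAG1, JAG2 and NRARP, had log2 fold changes between -0.13 and 0.07.

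**Figure D1:**
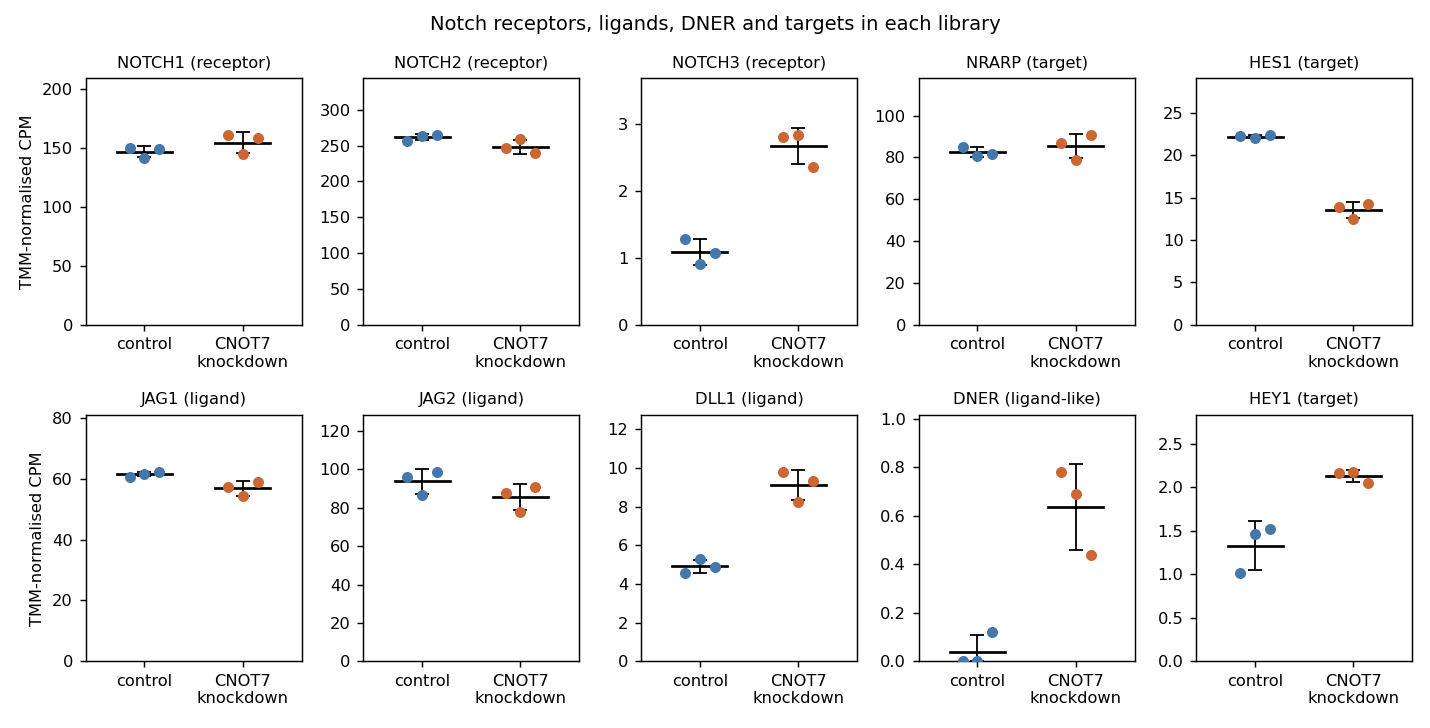
TMM-normalised CPM (y axis, from 0, own scale in each panel) of the 10 Notch genes in 3 control and 3 CNOT7 knockdown libraries (points, from left to right replicates 1 to 3), with the mean and 1 SD in black, the SD bar of the DNER controls stopping at 0. HES1 falls from about 22.2 to 13.6 CPM, DLL1, NOTCH3, HEY1 and DNER lie higher with knockdown in every library, and the other 5 panels change little.

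The sequence shown first is the promoter of HES1, the only member that was called lower, because it holds the binding letters of RBPJ, the factor through which cleaved Notch acts. The window is chr3:194135898-194136197 on the forward strand of GRCh38.p14, 250 bases before to 50 after the RefSeq start, written 5′ to 3′ with each RBPJ core TGGGAA in capitals. The promoter of NRARP, a Notch target that was not called, is set below it for comparison, chr9:137302222-137302521 on the reverse strand.
HES1: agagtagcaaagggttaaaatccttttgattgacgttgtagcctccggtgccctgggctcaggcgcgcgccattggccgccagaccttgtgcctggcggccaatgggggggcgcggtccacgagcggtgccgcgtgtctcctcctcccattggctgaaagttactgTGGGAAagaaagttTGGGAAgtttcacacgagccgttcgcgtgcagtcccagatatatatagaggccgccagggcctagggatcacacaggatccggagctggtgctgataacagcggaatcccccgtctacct
NRARP: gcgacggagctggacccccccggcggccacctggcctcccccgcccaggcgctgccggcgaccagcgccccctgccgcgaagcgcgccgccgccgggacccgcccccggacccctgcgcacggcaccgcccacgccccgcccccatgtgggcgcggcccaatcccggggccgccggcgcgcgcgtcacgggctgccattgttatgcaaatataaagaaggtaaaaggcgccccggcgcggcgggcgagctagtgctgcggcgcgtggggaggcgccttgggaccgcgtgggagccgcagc

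In HES1 the cores begin 84 and 70 bases before the start, on the same strand, with 8 bases between them. Only these exact letters were searched, so any other form of an RBPJ site is not marked. RefSeq promoters were matched for 7 of the 10 genes, all but DLL1, DNER and HEY1. Searched on both strands, TGGGAA was found in HES1 and in none of the other 6 windows (NOTCH1, NOTCH2, NOTCH3, JAG1, JAG2 and NRARP). It occurred in 24.3% of 27305 human promoters of this length, and 3.81% held at least 2. GGAATG, the core of the TEAD factors that partner YAP, was in none of the 7 windows and in 14.0% of all promoters. TGGGAA ends in the letters GGAA with which GGAATG begins, so a match of one can overlap a match of the other. A match is a run of letters and was not tested as a binding site, and a window without a match says nothing about the factor.

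Among the receptors, NOTCH1 and NOTCH2 made up nearly all of the signal and NOTCH3, a receptor best known from vascular smooth muscle, rose from a very low level. NOTCH3 (ENSG00000074181, chromosome 19, 15159038 to 15200981, reverse strand, GRCh38) had 33, 21 and 27 counts in control replicates 1 to 3 and 79, 78 and 70 counts in knockdown replicates 1 to 3. Scaled to depth, the lowest knockdown library stood at 2.35 CPM and the highest control library at 1.28 CPM. In CPM, NOTCH3 went from 1.09 ± 0.191 to 2.66 ± 0.268 (SD, n = 3), and the log2 fold change was 1.28 with a standard error (SE) of 0.221 and a 95% interval from 0.81 to 1.74.

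NOTCH1 (ENSG00000148400, chromosome 9, 136494433 to 136545786, reverse strand) measured 149.6, 141 and 149 CPM in the controls and 161, 144 and 158 CPM with knockdown. These values overlapped, and the log2 fold change was 0.07 (SE 0.0573, 95% interval -0.05 to 0.19). NOTCH2 (ENSG00000134250, chromosome 1, 119911553 to 120069626, reverse strand) measured 257, 263 and 264 CPM in the controls and 247, 259 and 239 CPM with knockdown. Here knockdown replicate 2 lay within the control range, and the log2 fold change was -0.08 (SE 0.0514, 95% interval -0.18 to 0.03). Reads of NOTCH2 can be shared with its partial copies. NOTCH2NLA had 36 to 65 counts in a library and NOTCH2P1 had 0, against at least 6127 for NOTCH2.

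Divided by the authors' gene lengths, the receptors could be set side by side as CPM per kilobase (RPKM). In the controls NOTCH2 stood at 15.6 ± 0.252 RPKM, NOTCH1 at 14.1 ± 0.442 RPKM and NOTCH3 at 0.116 ± 0.0203 RPKM (SD, n = 3). NOTCH3 made up 0.388% ± 0.0661 of the summed RPKM of the 3 receptors in the controls and 0.946% ± 0.0919 with knockdown. The sum itself was 29.8 ± 0.352 RPKM in the controls and 29.9 ± 0.396 RPKM with knockdown, a difference within the spread of either group. NOTCH4, the remaining mammalian receptor, was not called (log2 fold change 0.49, 95% interval -0.25 to 1.22).

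**Figure D2:**
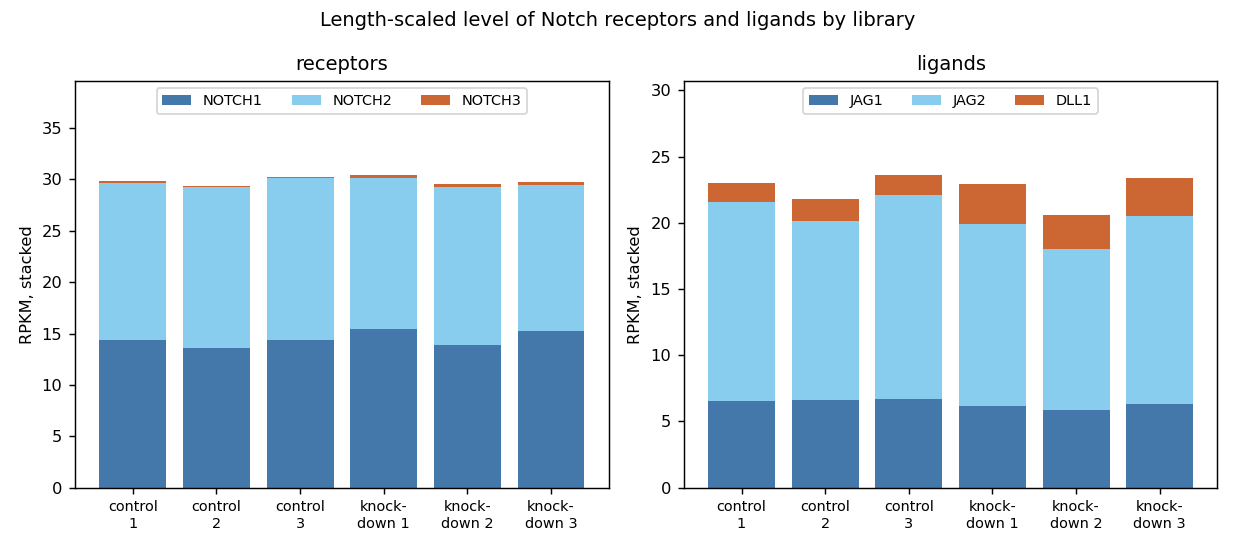
RPKM (y axis, from 0) of the receptors NOTCH1, NOTCH2 and NOTCH3 (left) and of the ligands JAG1, JAG2 and DLL1 (right), stacked for each of the 6 libraries (x axis). The NOTCH3 band is at most 1.02% of the receptor stack in any library, while the DLL1 band grows from a mean of 6.70% to 12.7% of the ligand stack.

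Of the 3 ligands in the group, DLL1 was called higher and the Jagged ligands were not called. DLL1 (ENSG00000198719, chromosome 6, 170282206 to 170306565, reverse strand), a Delta-family ligand that in the intestine is made by early secretory cells, had 118, 123 and 122 counts in the controls and 276, 228 and 277 counts with knockdown. Scaled to depth, the lowest knockdown library stood at 8.26 CPM and the highest control library at 5.29 CPM. Its level went from 4.92 ± 0.351 to 9.12 ± 0.781 CPM (SD, n = 3), which is a log2 fold change of 0.89 (SE 0.123, 95% interval 0.63 to 1.15). DLL1 overlaps FAM120B on the opposite strand, which had 1135 to 1586 counts in a library. The strand setting of the counting is not stated. The log2 fold change of FAM120B was 0.17 and it was not called.

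JAG1 (ENSG00000101384, chromosome 20, 10637684 to 10673999, reverse strand), a Jagged-family ligand, measured 60.7, 61.7 and 62.2 CPM in the controls and 57.4, 54.2 and 59.0 CPM with knockdown. All 3 knockdown values were below all 3 control values, yet the log2 fold change was only -0.11 (SE 0.0618, 95% interval -0.24 to 0.02) and JAG1 was not called. JAG2 (ENSG00000184916, chromosome 14, 105140981 to 105168824, reverse strand) measured 96.1, 86.5 and 98.6 CPM in the controls and 87.7, 77.9 and 90.8 CPM with knockdown. Its groups overlapped, at a log2 fold change of -0.13 (SE 0.069, 95% interval -0.28 to 0.01). In RPKM, JAG2 was the most abundant ligand in both groups. It stood at 14.7 ± 0.999 RPKM in the controls, against 6.62 ± 0.0819 RPKM for JAG1 and 1.52 ± 0.109 RPKM for DLL1. DLL1 made up 6.70% ± 0.715 of the summed ligand RPKM in the controls and 12.7% ± 0.506 with knockdown. The sum over the 3 ligands was 22.8 ± 0.799 RPKM in the controls and 22.3 ± 1.32 RPKM with knockdown. DLL3 and DLL4, the remaining Delta ligands, were not called but went in the same direction as DLL1. Their log2 fold changes were 0.30 (95% interval 0.06 to 0.55) and 0.34 (95% interval -0.13 to 0.81). The groups did not overlap for DLL3 and overlapped for DLL4.

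DNER, a transmembrane protein of neurons with EGF repeats that has been described as an unconventional Notch ligand, was close to absent from the controls. DNER (ENSG00000187957, chromosome 2, 229357629 to 229714558, reverse strand) had 0, 0 and 3 counts in the controls and 22, 19 and 13 counts with knockdown. It passed the filter on low counts only through the knockdown libraries, so that a gene of this kind had to differ to be tested at all. Summed over libraries and scaled to depth, 54 counts against 3 gave a ratio of 15.6, with an exact 95% interval of 5.05 to 77.9. That interval covers counting error only and leaves out the spread between libraries. For a gene chosen and filtered in this way it is a description and no evidence of a rise. The fitted log2 fold change of 3.82 (SE 0.721) depends on how zeros are treated. With knockdown the level was still only 0.635 ± 0.178 CPM (SD, n = 3), the lowest of the 10 genes.

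One control library decides the size of the DNER ratio. Without control replicate 3 both remaining controls were at 0, and the fitted log2 fold change was 7.10, which is no bound. The knockdown mean was 5.17 times the level that 3 counts in a control library would give (0.123 CPM). That ratio leaves out the error of the knockdown mean and is not a lower limit. The genes whose profile over the 6 libraries was nearest to that of DNER, by root mean square difference of log2(CPM + 0.5) after centring on the control mean, were RAB39B (0.0422), AC139493.2 (0.100) and CPE (0.120). The difference of DNER between the groups on that scale was 1.07, since the added 0.5 CPM weighs heavily on so low a gene. The fitted log2 fold changes of RAB39B, AC139493.2 and CPE were 1.16, 1.92 and 1.48, below that of DNER. RAB39B went from 4.50 to 10.1 CPM, AC139493.2 from 0.349 to 1.34 CPM and CPE from 0.787 to 2.20 CPM.

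**Figure D3:**
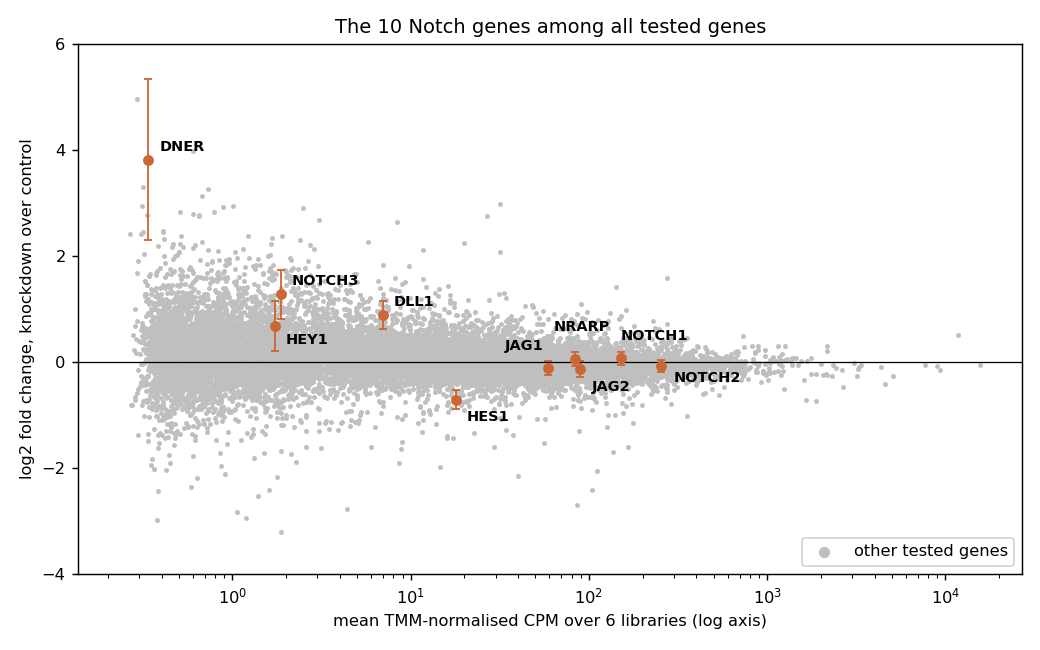
Log2 fold change of knockdown over control (y axis) against mean TMM-normalised CPM (x axis, log scale) for 17574 tested genes (grey) and the 10 Notch genes (orange, with 95% intervals). DNER, NOTCH3, HEY1 and DLL1 lie above 0 at mean levels under 10 CPM, HES1 lies below 0, and the other 5 sit near 0 at high levels.

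The 4 genes that were higher all had a mean under 10 CPM. Among the 7467 tested genes under that level, 14.3% were called higher, the median log2 fold change was 0.13 and the median size of the log2 fold change was 0.31, against 0.0039 and 0.18 over all tested genes. With a trend in abundance removed by cyclic loess, the log2 fold changes were 1.12 for NOTCH3, 0.80 for DLL1, 3.57 for DNER and 0.52 for HEY1, which was then no longer called.

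The 3 targets went in different directions. HES1 (ENSG00000114315, chromosome 3, 194136145 to 194138732, forward strand), a transcriptional repressor and the Notch target best known in the intestine, had 573, 512 and 561 counts in the controls and 393, 346 and 424 counts with knockdown. The controls stood at 22.3, 22.0 and 22.4 CPM, and all knockdown libraries were below them, at 13.9, 12.5 and 14.2 CPM. HES1 was left at 61.1% of its control level, a log2 fold change of -0.71 (SE 0.0865, 95% interval -0.89 to -0.53). The HES1 profile was nearest to those of TGM2 (root mean square difference 0.0399), IRS1 (0.0489) and RBMS2 (0.0515). TGM2 went from 2041 to 1246 CPM, IRS1 from 36.7 to 23.1 CPM and RBMS2 from 151 to 96.0 CPM.

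HEY1 (ENSG00000164683, chromosome 8, 79764010 to 79767863, reverse strand), a repressor related to HES1, had 26, 34 and 38 counts in the controls and 61, 60 and 61 counts with knockdown. The groups did not overlap. The controls were more spread out than the knockdown libraries, but at counts this low the difference in spread is not read as a property of the groups. Its level went from 1.33 ± 0.277 to 2.13 ± 0.0701 CPM (SD, n = 3), which is a log2 fold change of 0.68 (SE 0.225, 95% interval 0.21 to 1.15). This was the least stable of the 5 calls. It was lost in 7 of the 13 alternative fits, among them DESeq2 and the fits without control replicates 1 or 3 or any 1 knockdown replicate. Over all 13 the log2 fold change ranged from 0.51 to 0.79.

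NRARP (ENSG00000198435, chromosome 9, 137300482 to 137302251, reverse strand) is induced by Notch and in turn limits it by destabilising the receptor's intracellular part. It measured 85.2, 80.9 and 81.5 CPM in the controls and 86.7, 79.0 and 90.6 CPM with knockdown. The groups overlapped and the log2 fold change was 0.05 (SE 0.0629, 95% interval -0.08 to 0.18). HES1 and NRARP were both chosen with this contrast known, and the difference between the targets was not tested.

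On the length-scaled level NRARP was the most abundant of the 10, at 46.6 ± 1.32 RPKM in the controls. It was followed by NOTCH2, JAG2 and NOTCH1 at 15.6, 14.7 and 14.1 RPKM, HES1 at 10.8 RPKM, JAG1 at 6.62 RPKM, DLL1 at 1.52 RPKM, HEY1 at 0.411 RPKM, NOTCH3 at 0.116 RPKM and DNER at 0.0101 RPKM. The libraries of JAG2 overlapped those of both NOTCH2 and NOTCH1, and no other neighbours in this order overlapped. With knockdown the order was led again by NRARP at 48.3 RPKM, then NOTCH1, NOTCH2 and JAG2 at 14.9, 14.8 and 13.4 RPKM. HES1 at 6.58 ± 0.440 RPKM then overlapped JAG1 at 6.12 ± 0.258 RPKM, from which it was separate in the controls. DLL1 at 2.83 RPKM, HEY1 at 0.659 RPKM, NOTCH3 at 0.283 RPKM and DNER at 0.161 RPKM kept their places. In RNA from a whole culture, fewer cells that make a gene and less RNA in each cell cannot be told apart.

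**Figure D4:**
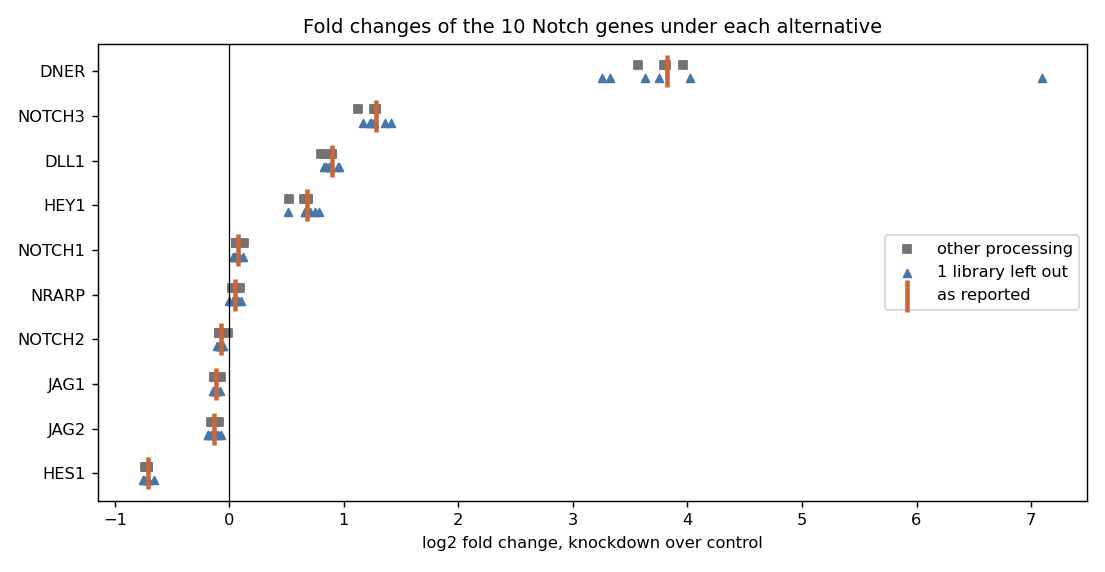
Log2 fold change (x axis) of each of the 10 Notch genes (y axis) as reported (orange line), under other processing (grey squares) and with 1 library left out (blue triangles). NOTCH3, DLL1, HEY1 and DNER stay above 0 and HES1 stays below 0 throughout, and DNER alone moves far, to 7.10 without control replicate 3.

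NOTCH3, DLL1 and HES1 were called in all 13 alternative fits. Every fit reused the libraries whose differences were known when the genes were chosen. The calls therefore describe how far the values depended on processing and are not independent evidence. Their log2 fold changes ranged from 1.12 to 1.41 for NOTCH3, from 0.80 to 0.96 for DLL1 and from -0.75 to -0.66 for HES1. DNER, which passed the filter only through the knockdown libraries, ranged from 3.26 to 7.10 over 12 fits, and its calls in them say nothing about stability. DESeq2 gave it a log2 fold change of 3.96 with no adjusted p-value, and it was removed when 10 counts were required of each library. The small differences of the Jagged ligands and NOTCH2 depended on the fit. When trends with GC content and length were removed, JAG2, JAG1 and NOTCH2 were called lower, at -0.16, -0.13 and -0.09, and JAG2 was also called with the replicate number as a block.

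GC content separated the libraries within the groups, and 4 of the 10 genes (NOTCH1, NOTCH3, JAG2 and NRARP) lie in the top quintile of tested genes by transcript GC. In that quintile the median log2 deviation from the group mean was -0.11 in knockdown replicate 2 and 0.087 in knockdown replicate 3, and -0.09 in control replicate 2 and 0.072 in control replicate 1. Control replicate 2 was the lowest control for these 4 genes, and knockdown replicate 2 was the lowest knockdown library for NOTCH1, JAG2 and NRARP but the highest for NOTCH3. Between the groups the median log2 fold change of the quintile was -0.0038. With trends in GC content and length removed together, the log2 fold changes were 0.06 for NOTCH1, 1.27 for NOTCH3, -0.16 for JAG2 and 0.02 for NRARP. As reported they were 0.07, 1.28, -0.13 and 0.05. The part of GC content alone was not tested.

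Of 20 nearest tested neighbours of the 10 genes, 1 on each side, 1 was called, against 25.2% of all tested genes. LINC02298, to the left of JAG2, was lower, at a log2 fold change of -0.68 (SE 0.174, adjusted p = 0.00828, quasi-likelihood test of edgeR, Benjamini-Hochberg). The neighbours of DNER (CCL20 and TRIP12) and of HES1 (OPA1-AS1 and LINC00887) were not called, and neither were those of DLL1 and HEY1. Some neighbours were too low to be called easily or lay far away. OPA1-AS1 stood at 0.617 CPM in the controls (SE of the log2 fold change 0.396) and LINC00887 at 0.255 CPM (SE 0.453). CCL20 lay 1540 kilobases from DNER. The neighbours were not matched by level to all tested genes, so nothing is read from the share called.

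The 3′ untranslated regions of the 10 genes were read from GENCODE release 29, in 1 transcript for each gene, since the CCR4-NOT complex is brought to messenger RNAs partly by proteins that bind there. Such proteins include the Pumilio proteins, which bind the RNA form of TGTANATA, and proteins that bind AU-rich elements around copies of ATTTA. The letters TGTANATA occurred on the transcript strand in 6 of the 10 genes, and in 25.1% of 13391 tested genes. Among genes of similar length of this region (0.8 to 1.25 times) the share ran from 11.3% for the length of HES1 to 51.4% for that of NOTCH2. Each match is shown with 10 bases on either side, with the match in capitals, to set HES1, the gene that was lower, and DLL1, the only higher gene with a match, against the members that were not called.
HES1: gcactatattTGTATATAttttatatgt
DLL1: tatattttttTGTATATAaatgtattta
NOTCH1: aaaaaatgtcTGTAAATAtgtttttaaa
JAG1: tgtatagttaTGTAAATAattctttttt
JAG2: tttgtaaatgTGTACATAttaaaggaag
NOTCH2, first match: tttagttaatTGTAGATAaagaatagtt
NOTCH2, second match: ctgggcatttTGTAGATAttaacaggtg

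NOTCH3, DNER, HEY1 and NRARP had no match, so the letters were present in 1 of the 4 genes that were higher, in the 1 that was lower and in 4 of the 5 that were not called. ATTTA was found in 9 of the 10 genes, all but HES1, whose region of 499 bases is the shortest of the 10. Among genes of similar length to HES1, 51.3% held ATTTA. DNER held 6 copies in 911 bases and HEY1 7 in 1175 bases, against medians of 1 and 2 for genes of similar length. JAG1, which was not called, held 9 copies in 1814 bases, against a median of 3. The letters were counted only, and no binding was measured.

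Of 72 other genes of the pathway, listed by role with earlier results of these data known, 68 passed the filter and 25 were called, 11 higher and 14 lower, which is 36.8% of those tested against 25.2% of all tested genes. Because the list was drawn up with results known, nothing particular to it is read from that share. The same holds for every count by role below, beside 13.3% of all tested genes called higher and 11.9% lower. Their median log2 fold change was -0.02, against 0.0039 over all tested genes, and the 43 that were not called ranged from -0.26 to 0.82. Calls are by the same edgeR test, adjusted over all tested genes, and the values that follow are log2 fold changes unless CPM is named.

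Of the nuclear activators, 4 of 9 were lower and 1 was higher, where 11.9% of all tested genes were lower and 13.3% higher. RBPJ, the DNA-binding partner of cleaved Notch, was higher at 0.23 (SE 0.0612) on the log2 scale. Of 4 histone acetyltransferases, CREBBP was lower at -0.46 (SE 0.0567), KAT2B at -0.57 (SE 0.126) and EP300 at -0.30 (SE 0.0597), and KAT2A was not called, at -0.14. The coactivator MAML1 was lower at -0.16 (SE 0.0547). The RBPJ call was lost without control replicates 1 or 3, and the MAML1 call in 6 of 13 alternative fits, namely cyclic loess and every fit with 1 library left out except that without control replicate 2.

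Of 14 nuclear corepressors, 4 were lower and 2 were higher. TLE1, a Groucho corepressor that HES proteins recruit, had the largest fall in the list, from 16.5 ± 1.16 to 8.87 ± 0.972 CPM (SD, n = 3), which is a log2 fold change of -0.90 (SE 0.106). Its paralogue TLE3 was higher at 0.27 (SE 0.0566) and TLE2 and TLE4 were not called. SPEN, HDAC2 and CTBP1 were lower at -0.28, -0.26 and -0.23, and L3MBTL3, which RBPJ brings to its sites, was higher at 0.34. The L3MBTL3 call was lost in 6 of 13 alternative fits, namely DESeq2, no filter on low counts, cyclic loess and those without control replicates 1 or 2 or knockdown replicate 1. The CTBP1 call was lost in 4, namely cyclic loess and the fits without control replicates 1 or 3 or knockdown replicate 1, and those of TLE1, TLE3, SPEN and HDAC2 in none.

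Of 8 further targets that were tested, 4 were higher and 2 were lower. HEYL, of the HEY1 family, went from 10.1 ± 0.799 to 15.5 ± 0.699 CPM (SD, n = 3), which is a log2 fold change of 0.62 (SE 0.0988). HEY2 was higher at 0.35, HES6, which counteracts HES1, at 0.31, and MYC at 0.39. HES4 was lower at -0.37 and CCND1 (cyclin D1) at -0.23. HES2 and HES7 were not called, at -0.08 and 0.20, and HES5 had too few counts to be tested. The HEY2 call was lost in 7 of 13 alternative fits, namely DESeq2, no filter on low counts, cyclic loess and those without control replicates 1 or 3 or knockdown replicates 1 or 3. The HES6 call was lost in 4, without control replicates 2 or 3 or knockdown replicates 1 or 3, the HES4 call without knockdown replicate 1, and the calls of HEYL, MYC and CCND1 in none.

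Of the enzymes that add sugars to the receptors, 2 of 6 were called. MFNG was higher at 0.84 (SE 0.197) and LFNG was lower at -0.44 (SE 0.120), both of them Fringe glycosyltransferases that tune the response of receptors to ligands. Of 9 genes of receptor cleavage, FURIN was lower at -0.21 (SE 0.0628) and the γ-secretase subunit NCSTN at -0.20 (SE 0.0641), while the metalloproteases ADAM10 and ADAM17 and the presenilins were not called. The NCSTN call was lost in 6 of 13 alternative fits, namely cyclic loess and every fit with 1 library left out except that without knockdown replicate 2, and the FURIN call in 4, namely cyclic loess and the fits without control replicate 1, control replicate 3 or knockdown replicate 2. The LFNG call was lost without knockdown replicate 1. MIB1, a ubiquitin ligase that ligands need for activity, was higher at 0.25 (SE 0.0572), 1 of 4 genes of that role. MFAP2, a microfibril protein that can bind Jagged1, was higher at 0.70 (SE 0.0917), 1 of 4 further ligand-like genes that were tested. Among 11 genes of receptor trafficking and turnover, DTX1 was higher at 0.64 (SE 0.211) and DTX3 lower at -0.29 (SE 0.0868). The DTX1 call was lost in 6 of 13 alternative fits, namely DESeq2, cyclic loess and those without control replicates 1 or 3 or knockdown replicates 1 or 2, and the DTX3 call in 2, without control replicate 3 or knockdown replicate 2. The calls of MFNG, MIB1 and MFAP2 were lost in none.

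**Figure D5:**
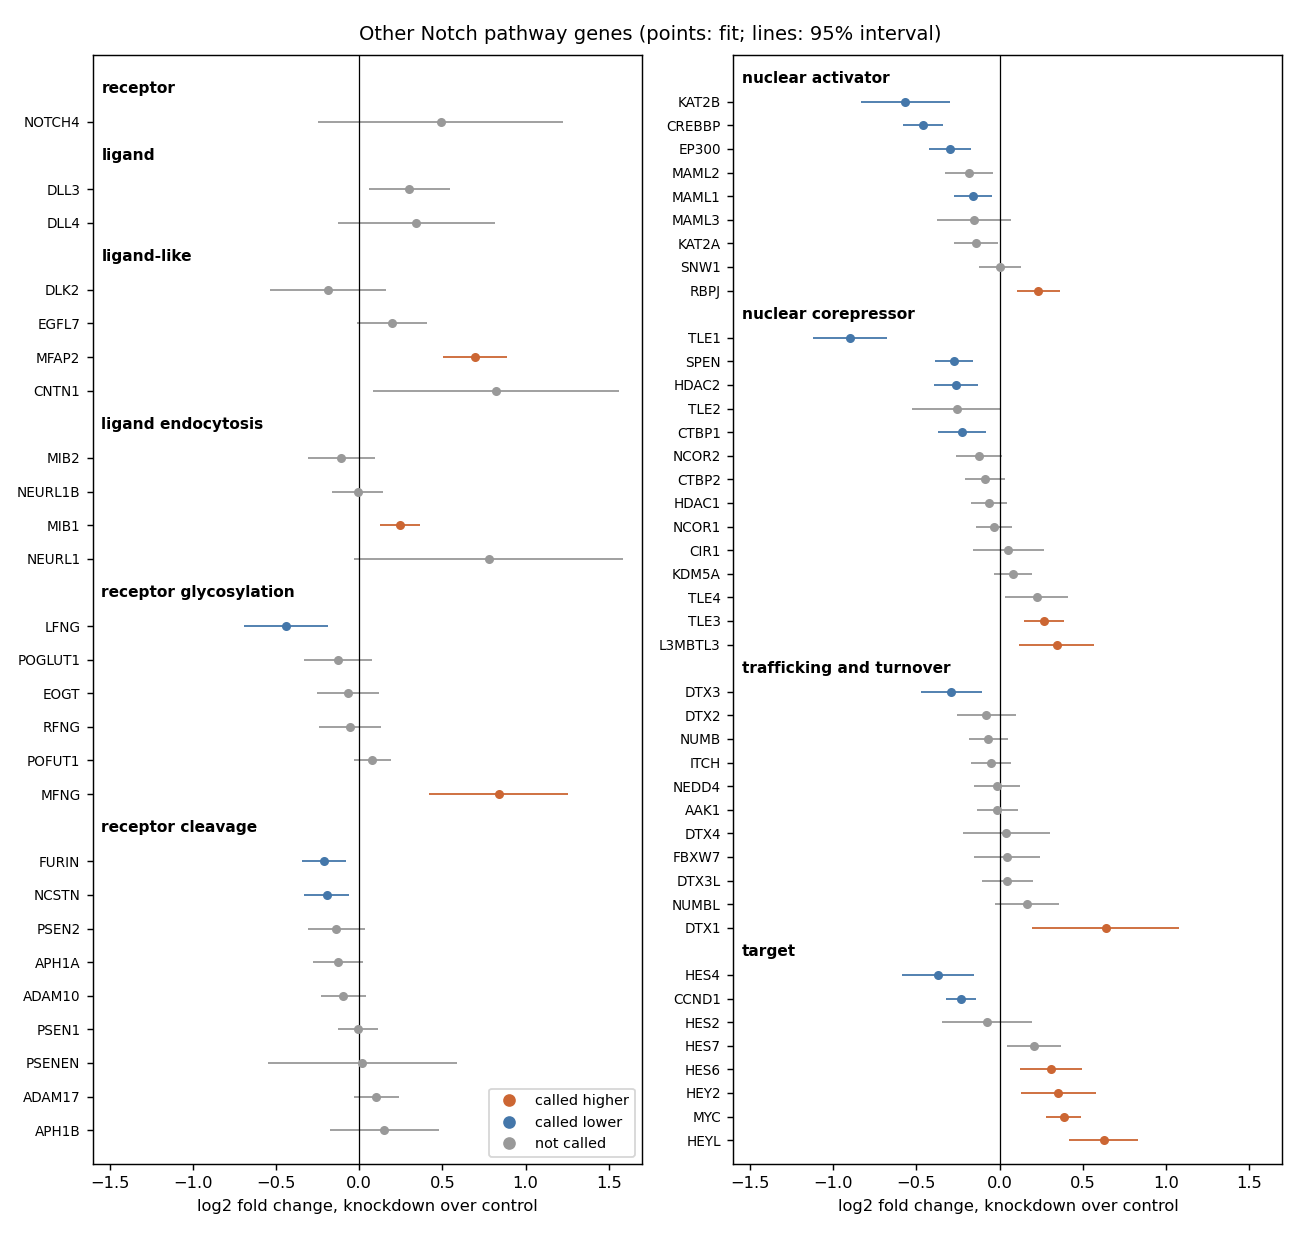
Log2 fold change of knockdown over control (x axis) with its 95% interval for 68 other Notch pathway genes, grouped by role, in orange where called higher, in blue where called lower and in grey where not called. Nuclear activators lie mostly to the left of 0 apart from RBPJ, and the targets split, with HES4 and CCND1 to the left and HES6, HEY2, MYC and HEYL to the right.

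The fates that Notch divides in the intestine were hardly readable in these cells. Of 16 regulators and products of secretory cells and stem cell genes, 5 passed the filter. ATOH1, the secretory regulator that HES1 represses, had 0 counts in all 6 libraries, where a count of 0 allows for up to 3 counts in a library. GFI1, which acts below ATOH1, stood at 6.67 ± 0.481 CPM in the controls and 5.93 ± 0.428 CPM with knockdown and was not called, nor were POU2F3, MUC2 and SOX9. ASCL2, a stem cell regulator, measured 43.3, 32.8 and 39.7 CPM in the controls and 48.8, 42.8 and 57.3 CPM with knockdown. Its groups overlapped, and it was called higher at a log2 fold change of 0.36 (SE 0.104, adjusted p = 0.0160, quasi-likelihood test of edgeR, Benjamini-Hochberg). The call was lost without control replicate 2, knockdown replicate 1 or knockdown replicate 3. LGR5 had 0 counts in each control and 2 counts in each knockdown library and was not tested.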

How the data were processed

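RNA-seq of 6 unirradiated SW480 libraries, 3 control and 3 CNOT7 knockdown, was analysed. The authors deposited raw counts per gene with a gene length, not normalized. The submitters' processing notes name CASAVA 1.8, fastp, HISAT2 2.0.5, featureCounts 1.5.0-p3, DESeq2 1.20.0 and GRCh38, in no stated order. RNA was extracted with TRIzol for a NEBNext Ultra kit, and the strand setting of the counting is not stated. Groups came from the deposited labels.

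Counts were fitted in R 4.3.3 with edgeR 4.0.16 (filterByExpr, TMM, quasi-likelihood test, no block), with Benjamini-Hochberg adjustment over 17574 genes, a cut at 0.05, and no fold limit. The SE was taken as the size of the log2 fold change over the root of F, and intervals use the t distribution of the fit. Total counts of 23788451 to 29104872 and 3 libraries a group set the precision, which the SE shows. Replicates differed by more than sampling noise, so each was counted once.

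The 10 genes and all gene lists were chosen with earlier results of these data known. Every member was named, with every called gene of the lists, the nearest tested gene on each side of a member by gene start, and the 3 genes nearest in profile to the largest rise and the largest fall. The RBPJ and TEAD letters were set with the lists, and the words searched in 3′ untranslated regions were added after the values were seen. RefSeq promoters (GRCh38.p14) and GENCODE release 29 transcripts with the longest coding sequence were used.

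Alternatives were DESeq2 1.42.0, RLE factors, no filter on low counts, at least 10 counts in every library, the replicate number as a block, cyclic loess offsets (limma 3.58.1) and each library left out. Removing trends with GC content and with length (loess at a span of 0.3) was added after seeing the data. The fits were tested on simulated data. Tables were handled in Python 3.11.15 with pandas 2.3.3, numpy 2.4.6 and scipy 1.17.1, and figures drawn with matplotlib 3.10.9.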

Additional observations from a re-analysis of the deposited data

How the results depend on the processing

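None of the 10 Notch genes changed sign under any of the 13 alternatives, DNER being left out by the filter of 10 counts. As reported, 5 of the 10 were called, beside 25.2% of all tested genes, and the count over all genes also moved with the fit, as given below. DESeq2 called 3, without HEY1 and with no adjusted p-value for DNER, and the fit with GC content and length trends removed, chosen after seeing the data, called 8, adding NOTCH2, JAG1 and JAG2 as lower. With 1 library left out the count ran from 4 to 5. For the other pathway genes the count of 25 ran from 16 (without control replicate 3 or knockdown replicate 1) to 28 with 1 library left out, was 19 under cyclic loess offsets and 35 with the GC and length trends removed. For the intestinal genes the count of 1 ran from 0 to 1. Over all genes the count of 4424 was 3857 by DESeq2 and 6627 with the GC and length trends removed, and ran from 3030 (without control replicate 3) to 4542 with 1 library left out. The replicate numbers are not said to mark shared cultures. Deviations of same-numbered libraries correlated at 0.17, 0.53 and 0.049 over 11904 genes, and knockdown replicate 3 correlated best with control replicate 1 (0.44), so the numbers were not taken to pair the libraries. With the replicate block 6508 genes were called, with 6 of the 10 Notch genes (adding JAG2), 34 of the other pathway genes and 1 intestinal gene. Counts of 0 to 38 in the controls for DNER, NOTCH3 and HEY1 limit the precision of their folds.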
